A study of Mus musculus with 16 samples.

Results

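The genes described here encode the nuclear subunits of the mitochondrial respiratory chain and ATP synthase, together with a few assembly factors. They were chosen by name: every probe set with a single annotated symbol beginning with Nduf, Sdh (Sdha to Sdhd), Uqcr, Cox4, Cox5, Cox6, Cox7, Cox8 or Atp5, and those of Cycs and Cyc1. This gave 73 of the 8251 genes named on the array, covered by 101 of 10833 probe sets with 1 gene symbol. Each gene was read from its brightest probe set, the one with the highest mean over 16 arrays, and no measured difference entered the choice. By complex, 29 genes encode subunits of complex I, 2 encode complex I assembly factors, 4 belong to complex II, 8 to complex III, 15 to complex IV and 14 to complex V, and Cycs encodes cytochrome c. Another 10 probe sets that pair a gene of this kind with a further symbol, among them those of Cox7c, Ndufs5 and Ndufs6, were left out by the rule.

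The respiratory chain sits in the inner mitochondrial membrane. Complex I takes electrons from NADH and complex II takes them from succinate; both pass them to ubiquinone, complex III hands them to the small carrier cytochrome c, and complex IV passes them to oxygen. Complexes I, III and IV pump protons, and complex V, the ATP synthase, lets the protons flow back to make ATP. Resting lymphocytes draw most of their ATP from this chain and turn more to glycolysis when activated.

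The study measured RNA from 6 sorted lymphocyte populations of the mouse on 16 oligonucleotide arrays, 1 for each sample, and sets 3 innate-like populations each against an adaptive counterpart. NKT cells (CD3+CD4+NK1.1+, n = 3) and CD4 T cells without NK1.1 (CD4T, n = 3) came from the spleen. CD8aaT cells (TCRb+CD8a+CD8b-, n = 3) and CD8abT cells (TCRb+CD8a+CD8b+, n = 3) came from RTOC, cultures the labels give by this abbreviation alone, with the agonist Smcy at a dose written as 10 mM for CD8aaT and 100 nM for CD8abT. B1 cells (IgM(hi)IgD(int)CD11b+, n = 2) came from the peritoneum and B2 cells (IgM(int)IgD(hi)CD11b-, n = 2) from the spleen. Spleen and peritoneal cells came from wild type C57BL/6 mice, and the labels give no strain for the cultures. About 100000 cells were sorted for each spleen or peritoneal sample and about 50000 for each culture sample. Cell type and tissue cannot be told apart in the B cell pair, nor cell type and Smcy dose in the CD8 pair.

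All values below are log2 of the deposited intensity, and all differences are innate-like minus adaptive, on the same log2 scale, with the SE of the limma fit. Array medians were 30.4 to 31.8 in the CD8 pair, 49.6 to 54.1 in the NKT pair and 69.3 to 76.2 in the B cell pair, so levels were compared only within a pair. Some gate genes followed the labels, with Cd8b1 at -5.51 ± 0.34 in CD8aaT cells, a probe set common to Klrb1b and Klrb1c (NK1.1) at 3.67 ± 0.15 in NKT cells and Ighd at -1.25 ± 0.18 in B1 cells. Others did not. Itgam, which encodes the CD11b of the B1 gate, was at 0.01 ± 0.17 in B1 cells. The probe sets of Ighm, the IgM of that gate, ran from -0.43 to 0.54 there, with none called. For genes that are part of both gates of a pair the labels give no direction. Of these, Cd8a was lower in CD8aaT than in CD8abT cells (-0.80 ± 0.14, limma adjusted p = 0.030). Cd4, part of both gates of the NKT pair, was at -0.64 ± 0.17 in NKT cells (limma adjusted p = 0.11). Replicate 1 of NKT and of CD4T stood apart from replicates 2 and 3, which were close to each other. Over the chain genes, replicates 2 and 3 differed with an SD of 0.0971 (log2) in NKT and 0.14 in CD4T, and each differed from replicate 1 with an SD of 0.492 to 0.721. Whether replicates 2 and 3 there are independent samples is not stated, and p-values measure only the spread between these arrays. In a bulk sample, fewer cells with a transcript and less of it in each cell cannot be told apart.

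No gene of the chain passed the test between an innate-like population and its adaptive counterpart. Mean log2 intensities of the 73 genes over all arrays ran from 3.38 for Cox7a1 to 11.3 for Atp5a1, a range that includes differences between probes. With limma and Benjamini-Hochberg adjustment over 12422 probe sets, 0 of 73 were called in NKT against CD4T cells, where 1.87% of all genes were called. The count was also 0 in CD8aaT against CD8abT cells (0.218% of all genes), in B1 against B2 cells (1.36%), in the average of the 3 pairs (1.88%) and in the F test over the 3 pairs (2.82%). At an unadjusted limma p under 0.05 there were 3, 2, 2, 3 and 1 genes in these 5 tests. Of all 8251 genes, 588, 578, 468 and 746 had such a p in the 3 pairs and the average, a larger share in each. The lowest adjusted p of a chain gene was 0.675 in the NKT pair, 0.58 in the CD8 pair, 0.745 in the B cell pair and 0.192 in the average.

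The same-numbered arrays of the T cell pairs deviated together, so limma was also run with the replicate number as a block. The block was set within all 3 pairs, also the B cell pair, where 2 pairs of arrays were too few to judge this. Against 10 residual degrees of freedom without the block, the fit with it had 5. That fit called 0 genes in the NKT pair (5.64% of all genes), 0 in the B cell pair (3.41%) and 2 in the CD8 pair (3.81%), Ndufs1 higher and Uqcrq lower in CD8aaT cells. It called 1, Sdhd, in the average of the 3 pairs (6.62%) and 2, Uqcrq and Sdhd, in the F test (10.4%). In each of these the share of chain genes called is below that of all genes. In the differences between pairs, 0 of 73 were called for NKT minus CD8 (0.751%), NKT minus B (1.59%) and CD8 minus B (0.885%), with 2, 0 and 0 at an unadjusted limma p under 0.05. With the block the counts were 1, 0 and 0 (3.53%, 5.41% and 2.64%).

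For most genes the data bound the difference within 2-fold. Within 1.5-fold the 95% interval stayed for a minority, 24, 26 and 18 of 73 genes in the NKT, CD8 and B cell pairs. The largest difference of a chain gene was 0.46 for Ndufa9 in the NKT pair, 0.72 for Ndufs1 in the CD8 pair and 0.85 for Cycs in the B cell pair, so 0 of 73 genes reached a 2-fold difference in any pair, against 1.9%, 1.07% and 1.95% of all genes. The 95% interval of the difference stayed within 2-fold either way for 62 genes in the NKT pair, 56 in the CD8 pair and 54 in the B cell pair. For the average of the 3 pairs it did so for 73 of 73. For the other genes of each pair a 2-fold difference is inside the interval, as the plot of the 73 intervals shows.

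**Figure D1:**
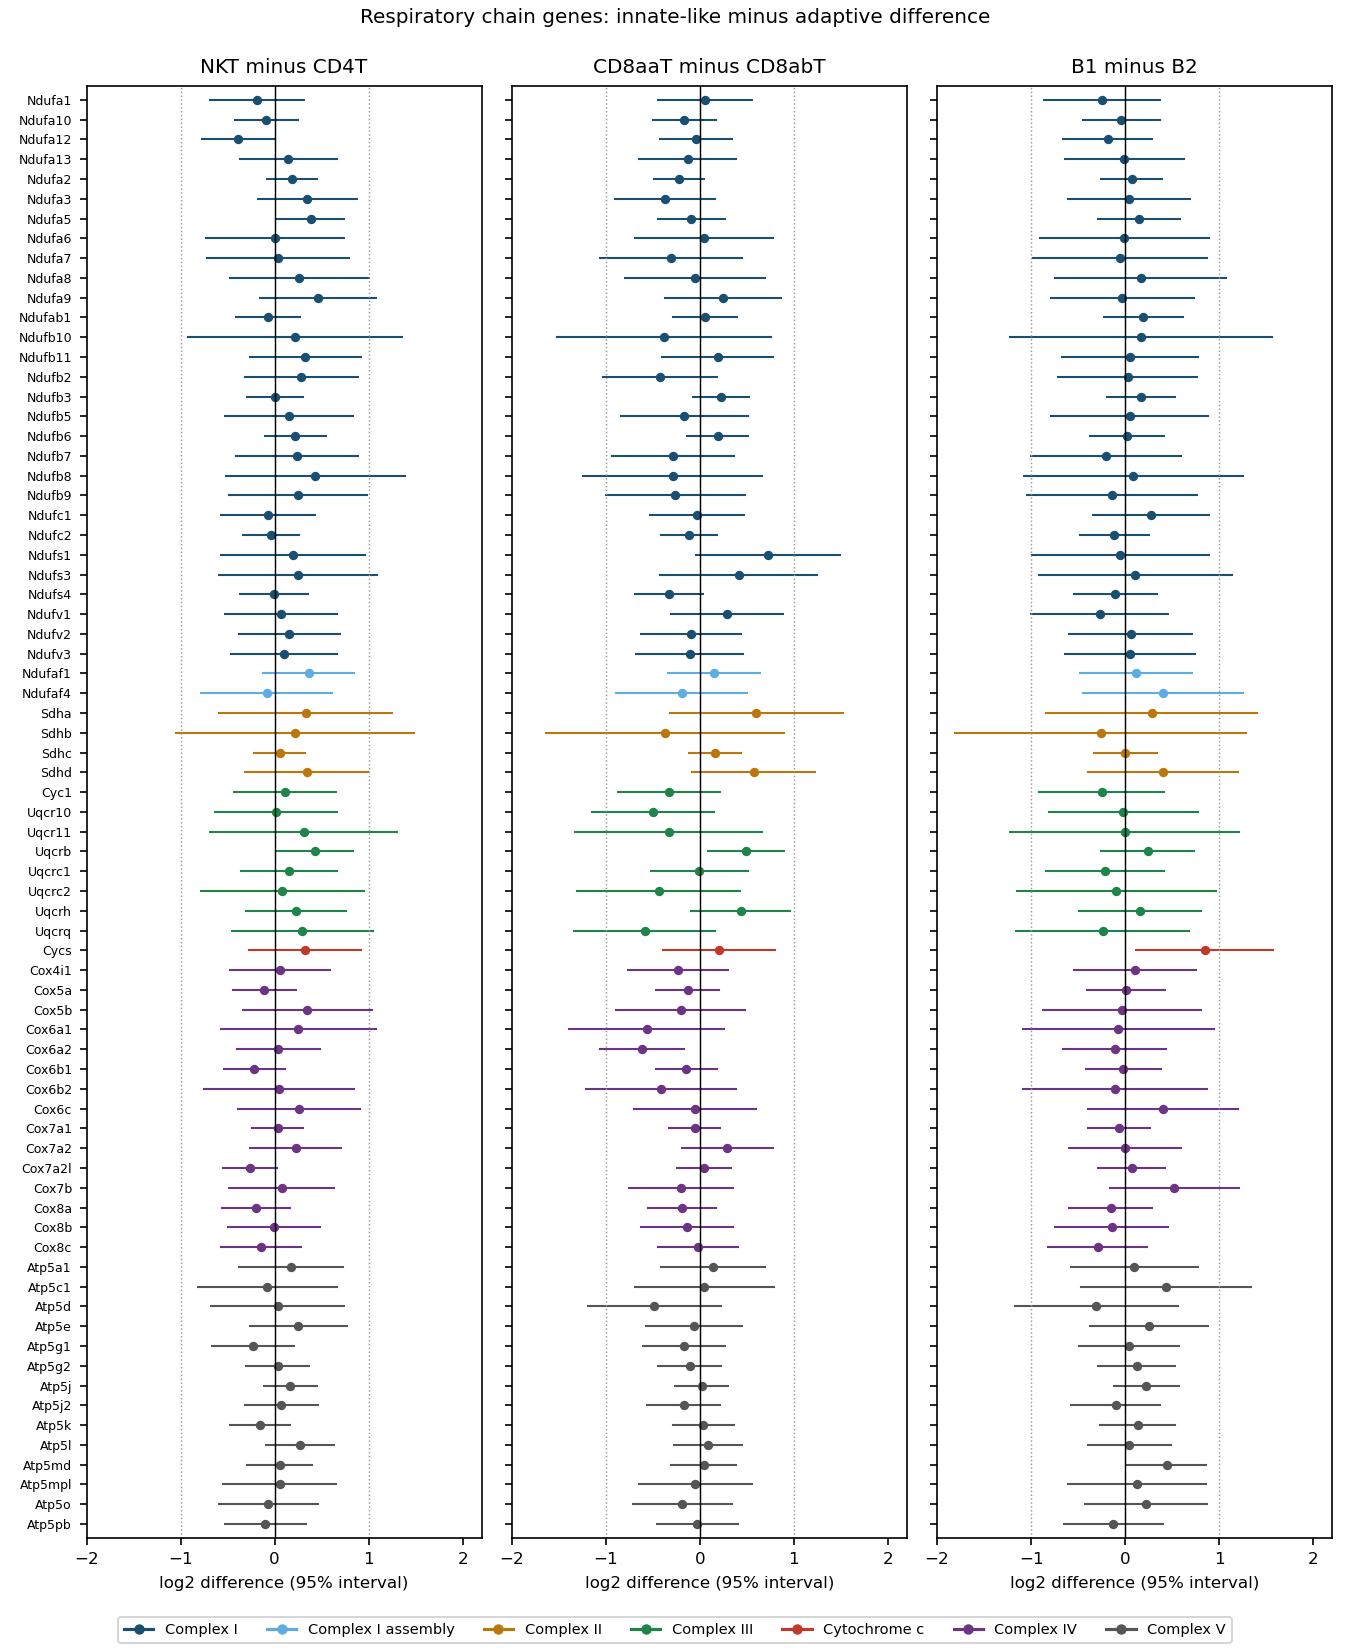
Innate-like minus adaptive log2 difference of each of the 73 genes in the 3 pairs, with points for the limma estimate, bars for its 95% interval, colours for the complex and dotted lines at a 2-fold difference. Estimates stay between -0.62 and 0.85, and most bars cross 0.

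The direction differed between the pairs. The median difference of the 73 genes was 0.10 in the NKT pair, with 54 genes above 0 (74%, against 45.3% of all genes, whose median was -0.02). It was -0.09 in the CD8 pair, with 25 above 0 (34.2%, against 41.7% and a median of -0.04), and 0.03 in the B cell pair, with 40 above 0 (54.8%, against 38% and -0.05). Without NKT replicate 1 the NKT median was -0.0080 with 34 of 73 genes above 0, a setting that keeps CD4T replicate 1, and without replicate 1 of every group it was 0.06 with 47 above 0. The CD8 median turned to 0.04 without CD8abT replicate 3 and to 0.07 with the actin ratio as a covariate, which is the signal of the 3′ beta-actin control over that of the 5′ one and a measure of RNA integrity, and the B cell median to -0.09 without B1 replicate 1 and -0.07 without B2 replicate 2. The average of the 3 pairs had a median of 0.01 with 41 above 0 (38.8% of all genes), and its sign turned under 10 of 26 alternatives. A difference above 0 in all 3 pairs was found for 15 genes, where 12.2% of all genes had one, and a difference below 0 in all 3 for 9, where 25.8% did.

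Complex I, the entry point for NADH electrons, had a median of 0.16 in the NKT pair, -0.09 in the CD8 pair and 0.03 in the B cell pair, and each changed sign in some settings: the first to -0.01 without NKT replicate 1, the second to 0.08 with the actin ratio as a covariate or without CD8abT replicate 3, and the last to -0.13 without B1 replicate 1 and -0.07 without B2 replicate 2. In the NKT pair 22 of its 29 genes were above 0. Ndufa5, an accessory subunit of the peripheral arm, read 9.50, 9.17 and 9.16 in NKT replicates 1 to 3 and 8.97, 8.78 and 8.92 in CD4T replicates 1 to 3. All NKT arrays lay above all CD4T arrays, and the difference of 0.38 ± 0.17 did not pass the test (limma adjusted p = 0.675). Over all complexes 5 genes lay higher in NKT without overlap (8.21% of all genes) and 1 lower (5.08%): Ndufa5, Ndufb6 (0.22 ± 0.15), Ndufa2 (0.18 ± 0.12), Atp5l (0.27 ± 0.17) and Atp5e (0.25 ± 0.24), and lower Cox8a (-0.20 ± 0.17). Ndufa9, an accessory subunit near the ubiquinone site, had the largest estimate in the NKT pair, 0.46 ± 0.29, but its groups overlapped.

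The core and accessory subunits of complex I had medians of opposite sign in the CD8 pair. The core includes the subunits that carry the flavin and iron-sulphur clusters along which electrons travel, although not every core subunit carries one. Differences of the core subunits in CD8aaT cells were 0.72 ± 0.36 for Ndufs1, 0.41 ± 0.39 for Ndufs3, 0.29 ± 0.28 for Ndufv1 and -0.09 ± 0.25 for Ndufv2, a median of 0.35. The 25 accessory subunits had a median of -0.11 with 18 below 0. The difference between the 2 classes was not tested. Ndufs1, which encodes the largest iron-sulphur subunit, read 6.60, 7.23 and 7.09 in CD8aaT replicates 1 to 3 and 5.55, 6.65 and 6.55 in CD8abT replicates 1 to 3. Each CD8aaT array lay above the CD8abT array of its number, which is what the fit with the block compares, while the groups overlapped. The limma adjusted p was 0.861, and 0.048 in the fit with the block; with the actin ratio as a covariate the difference was 0.39. Of the accessory subunits, Ndufa3 (-0.37 ± 0.25) and Ndufs4 (-0.33 ± 0.17), whose product helps to assemble complex I, were lower without overlap and Ndufa9 (0.24 ± 0.29) higher without overlap. The second probe set of Ndufa3 was at 0.08 ± 0.24 in this pair. Ndufa9 was at -0.30 with the actin ratio as a covariate.

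In the B cell pair 3 of 29 complex I genes were higher in B1 without overlap, no larger a share than the 12.9% of all genes, among them Ndufc1 (0.27 ± 0.29) and Ndufab1 (0.19 ± 0.20), the mitochondrial acyl carrier protein. Of the assembly factors, Ndufaf1 was at 0.36 ± 0.23, 0.15 ± 0.23 and 0.12 ± 0.28 in the NKT, CD8 and B cell pairs, and Ndufaf4 at -0.08 ± 0.32, -0.19 ± 0.32 and 0.41 ± 0.40. None of these passed the test.

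Complex II, succinate dehydrogenase, which also works in the citric acid cycle, had a positive median in every pair: 0.27, 0.37 and 0.14 in the NKT, CD8 and B cell pairs. That sign held under all 27 alternative settings of each pair, many of which cannot move it. The block, a fit on the pair alone and leaving out an array of another pair do not change a pair's differences. The medians rest on 4 genes and ranged from 0.00 to 0.35, 0.02 to 0.46 and 0.07 to 0.34 over those settings. Sdhd, which encodes a membrane anchor that binds ubiquinone, was the only chain gene called in the average of the 3 pairs under the block. It read 7.95, 8.72 and 8.72 in NKT replicates 1 to 3 against 7.46, 8.42 and 8.49 in CD4T. It read 8.05, 7.95 and 8.52 in CD8aaT against 7.99, 7.20 and 7.61 in CD8abT, and 8.64 and 9.05 in B1 against 8.22 and 8.65 in B2. The groups overlapped in every pair. The innate-like array was the higher in each of the 8 same-numbered pairs, which are what the fit with the block compares. This adds no support to that fit, and how many of all genes share the pattern was not counted. The average difference was 0.44 ± 0.19, with a limma adjusted p of 0.551 and of 0.018 with the block.

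Sdha, the flavoprotein that oxidises succinate, read 4.98, 5.04 and 4.88 in CD8aaT replicates 1 to 3 against 4.55, 4.20 and 4.34 in CD8abT. All CD8aaT arrays were higher (0.60 ± 0.43, limma adjusted p = 0.901). Sdha was dim in this pair, near the array median in CD8aaT and below it in CD8abT. With the actin ratio as a covariate the CD8 difference was -0.23 for Sdha and -0.09 for Sdhd. In CD4T cells Sdha read 5.06 on replicate 1 and 6.92 and 7.25 on the others, a gap far wider than the difference of 0.33 ± 0.43 between NKT and CD4T. The remaining subunits differed little or with wide error: the iron-sulphur subunit Sdhb was at 0.22 ± 0.59, -0.37 ± 0.59 and -0.26 ± 0.72 in the NKT, CD8 and B cell pairs, and the anchor Sdhc at 0.05 ± 0.13, 0.16 ± 0.13 and 0.00 ± 0.16.

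Promoters of chain genes are known targets of the factor NRF1 and of GABP, a member of the ETS family. In the RefSeq annotation of GRCm38.p6, 59 of the 73 genes had a promoter sequence of 300 bases, from 250 before to 50 after the start. Both strands were searched for a form of the NRF1 motif, GCGCA and GCGC with any 1 base between them, and for CCGGAAG, a core of the ETS motif. The NRF1 motif was present in 12 of 59 promoters (20.3%), against 7.17% of 17492 protein-coding genes, and the ETS motif in 16 of 59 (27.1%), against 12.9%. Either motif was present in 25 of 59 (42.4%), against 18.6%. A match is a description of the letters and not of binding. The 120 bases before the start are shown, 5′ to 3′ on the gene's strand, for Sdhd and Sdha, whose difference was among the largest of the average, and for Uqcrh and Ndufa5, described with their complexes. All lie on the minus strand, at chr9:50603850-50603969, chr13:74350241-74350360, chr4:116075071-116075190 and chr6:24527691-24527810 in that order, and capitals mark either motif on either strand.
Sdhd: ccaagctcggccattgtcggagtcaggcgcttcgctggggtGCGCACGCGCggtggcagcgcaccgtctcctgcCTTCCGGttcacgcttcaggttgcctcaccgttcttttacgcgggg
Sdha: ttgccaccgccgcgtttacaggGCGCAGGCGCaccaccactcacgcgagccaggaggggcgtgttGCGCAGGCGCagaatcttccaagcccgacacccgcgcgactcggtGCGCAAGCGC
Uqcrh: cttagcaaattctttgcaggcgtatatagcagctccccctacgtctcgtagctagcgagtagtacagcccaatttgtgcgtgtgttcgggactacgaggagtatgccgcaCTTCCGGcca
Ndufa5: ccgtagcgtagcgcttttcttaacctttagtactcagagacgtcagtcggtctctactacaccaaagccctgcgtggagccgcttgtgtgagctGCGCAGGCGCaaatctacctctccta
Sdhd carries 1 NRF1 and 1 ETS match, Sdha 3 NRF1 matches and no ETS match, Uqcrh 1 ETS match and Ndufa5 1 NRF1 match in these windows. Sdhb, at -0.14 ± 0.37 in the average, has an ETS match just after its start. Each promoter shown carries a match, while most of the 59 carry neither motif. No match was found for Cycs, Uqcrb, Ndufs1 or Uqcrq, which also had large differences, and any of these may lack a promoter sequence here. Where a gene had several promoter sequences, as Ndufa5 with 2, the window with the most matches was shown. The windows are examples, and a link between motif and difference was not tested.

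Complex III, which passes electrons from ubiquinol to cytochrome c, was split in direction. In the NKT pair 8 of its 8 genes were above 0, from 0.01 for Uqcr10 to 0.43 for Uqcrb, with a median of 0.19. In the CD8 pair the median was -0.33, and 0.01 without CD8abT replicate 3. In the B cell pair it was -0.06, turning to 0.20 without B2 replicate 1 and 0.22 without B1 replicate 2. The small subunits Uqcrb and Uqcrh differed from the rest in the CD8 pair, lying higher in CD8aaT cells while Uqcrq and Uqcr10 had the lowest values.

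Uqcrb, a small subunit close to the ubiquinone site, had the smallest p of the chain in the average of the 3 pairs. It read 9.76, 9.60 and 9.64 in CD8aaT replicates 1 to 3 against 9.54, 9.05 and 8.94 in CD8abT, and 10.31 and 10.37 in B1 against 10.08 and 10.12 in B2. In NKT it read 9.60, 9.20 and 9.22 against 8.58, 8.88 and 9.26 in CD4T. Groups did not overlap in the CD8 and B cell pairs, and in the NKT pair CD4T replicate 3 lay within the NKT range. The average was 0.39 ± 0.12 (1.31-fold, limma unadjusted p = 0.005, adjusted p = 0.192). Uqcrh, the acidic hinge protein that contacts cytochrome c1, was at 0.43 ± 0.25 in the CD8 pair, again without overlap, and at 0.01 with the actin ratio as a covariate.

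Uqcrq, a small subunit that contacts cytochrome b, went the other way in CD8aaT cells. It read 9.64, 9.77 and 9.75 in CD8aaT replicates 1 to 3 and 10.11, 10.25 and 10.57 in CD8abT. All CD8aaT arrays were lower. The difference was -0.59 ± 0.35, with a limma adjusted p of 0.891 and of 0.024 with the block. In the NKT pair the value was 0.30 ± 0.35, and -0.0016 without NKT replicate 1, from 9.52, 8.68 and 8.58 in NKT against 9.35, 8.26 and 8.29 in CD4T. The difference between these 2 pairs was 0.88 (limma adjusted p = 1, and 0.012 with the block). The actin ratio of CD8abT arrays was 6.57, 11.6 and 7.92 and that of CD8aaT arrays 5.80, 5.76 and 5.15, without overlap between the groups. The same ratio of the Gapdh control did overlap, at 24.0, 30.4 and 9.47 on CD8abT arrays and 20.9, 17.6 and 7.37 on CD8aaT arrays, and was not used as a covariate. With the actin ratio as a covariate the CD8 difference of Uqcrq was -0.03 and the difference between the pairs 0.45.

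Cyc1, the membrane-bound cytochrome c1 of complex III, and Cycs, the soluble cytochrome c it reduces, did not pass the test in any pair. Cycs read 7.92 and 7.70 in B1 replicates 1 and 2 against 7.24 and 6.69 in B2. It read 7.82, 7.0 and 7.02 in NKT against 6.81, 6.97 and 7.10 in CD4T, and it read 6.55, 6.41 and 7.38 in CD8aaT against 6.82, 6.23 and 6.68 in CD8abT. Both B1 arrays lay above both B2 arrays, while in the NKT and CD8 pairs the groups overlapped and 1 innate-like array, NKT replicate 1 and CD8aaT replicate 3, stood above the rest. The B cell difference was the largest of any chain gene in any pair, 0.85 ± 0.34 (1.80-fold, 95% interval 0.12 to 1.57), and did not pass the test (limma adjusted p = 0.745). Cyc1 read 10.03 and 9.37 in B1 against 10.28 and 9.62 in B2, a difference of -0.25 ± 0.31, and was at 0.11 ± 0.25 and -0.33 ± 0.25 in the NKT and CD8 pairs. Its second probe set was at -0.16 ± 0.21, -0.13 ± 0.21 and 0.04 ± 0.26 in the NKT, CD8 and B cell pairs, so the sign of Cyc1 depends on the probe set in the NKT and B cell pairs.

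**Figure D2:**
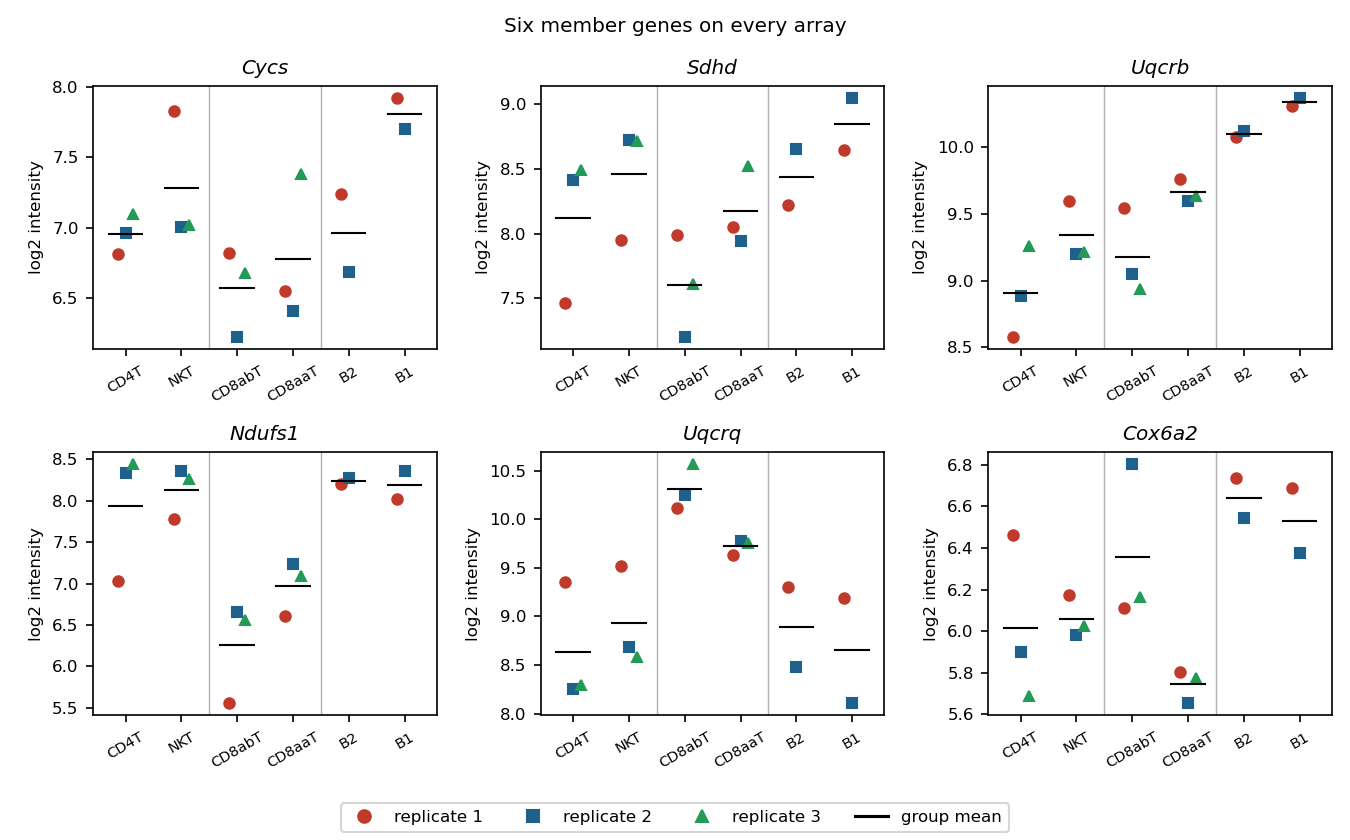
Log2 intensity of 6 chain genes on each array, by population, with point shape and colour for the replicate number and a bar for the group mean. Cycs is separate in B1 and B2, Uqcrb is higher in CD8aaT and B1 without overlap, and Uqcrq and Cox6a2 are lower in CD8aaT without overlap, while replicate 1 of CD4T is low for Sdhd and Ndufs1.

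Complex IV, cytochrome c oxidase, had medians of 0.04, -0.14 and -0.03 in the NKT, CD8 and B cell pairs, and the first and last change sign between settings (-0.08 to 0.09 and -0.11 to 0.05). In the CD8 pair 13 of its 15 genes were below 0. The median stayed below 0 under all 27 settings (-0.23 to -0.01), many of which cannot move it. Several of its subunits have a widely expressed form and a form known from muscle or testis. Cox6a2, the heart and skeletal muscle form of subunit VIa, read 5.80, 5.65 and 5.78 in CD8aaT replicates 1 to 3 against 6.11, 6.80 and 6.16 in CD8abT. All CD8aaT arrays were lower (-0.62 ± 0.21, limma unadjusted p = 0.010, adjusted p = 0.58), and the value was -0.22 with the actin ratio as a covariate. The widely expressed Cox6a1 was at -0.57 ± 0.39 in the same pair, with overlap. In the CD8 pair 4 genes in all were higher without overlap (6.67% of all genes) and 4 lower (5.94%).

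The 5 muscle or testis forms, Cox6a2, Cox6b2, Cox7a1, Cox8b and Cox8c, were below 0 in the CD8 pair and in the B cell pair in 5 of 5 cases, with medians of -0.14 and -0.11, and 3 of 5 were above 0 in the NKT pair. Of all genes 41.7%, 38% and 45.3% were above 0 in these pairs. Of 9 widely expressed complex IV genes 8 were below 0 in the CD8 pair and 5 in the B cell pair, and 6 were above 0 in the NKT pair. The 3 probe sets of Cox6b2 ran from -0.42 to 0.02 in the CD8 pair. Cox7a1 was the dimmest chain gene, reading 2.75 to 4.21 over all arrays, and whether so low a level is above background is not recorded in the values used. Cox8a, the widely expressed form of subunit VIII, was also dim (3.03 to 4.31). It was lower without overlap in NKT cells (3.73, 3.68 and 3.71 against 3.88, 3.92 and 3.93) and in B1 cells (4.16 and 4.06 against 4.23 and 4.31), with differences of -0.20 ± 0.17 and -0.15 ± 0.21. It was the only chain gene lower without overlap in 2 pairs, and Uqcrb and Atp5e were the only ones higher without overlap in 2. The share of all genes without overlap in 2 pairs was not counted, so this is not read as a result about these genes.

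Complex V had medians of 0.04, -0.04 and 0.12 in the NKT, CD8 and B cell pairs. The first was -0.05 after quantile normalization and the second 0.09 with the actin ratio as a covariate. The last was positive under all 27 settings (0.09 to 0.17), many of which cannot move it. In the B cell pair 11 chain genes were higher in B1 without overlap (12.9% of all genes) and 5 lower (20.8%). With 2 arrays against 2 this is a weak criterion; the first count is near the share of all genes and the second below it. Atp5md, a small membrane subunit that links ATP synthase dimers, read 10.82 and 10.83 in B1 against 10.53 and 10.24 in B2, a difference of 0.44 ± 0.20 (limma adjusted p = 0.965). Atp5e, the epsilon subunit of the rotating stalk, read 8.10 and 8.04 in B1 against 7.83 and 7.80 in B2, and 7.91, 8.06 and 8.01 in NKT against 7.87, 7.60 and 7.75 in CD4T. The differences were 0.25 ± 0.29 and 0.25 ± 0.24, and the CD8 value was -0.06 ± 0.24.

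The coupling factor gene Atp5j was higher in B1 without overlap (0.23 ± 0.16), and Atp5d, the delta subunit next to Atp5e in the stalk, was lower without overlap (-0.31 ± 0.40), although its 5 probe sets ran from -0.31 to 0.28 in this pair. Uqcrc1 (-0.22 ± 0.29) and Cox8c (-0.29 ± 0.24) were also lower in B1 without overlap. The genes of the c ring, the rotor through which protons pass, did not pass the test in any pair. Atp5g1 was at -0.23 ± 0.20, -0.17 ± 0.20 and 0.05 ± 0.25 in the NKT, CD8 and B cell pairs, and Atp5g2 at 0.03 ± 0.16, -0.11 ± 0.16 and 0.12 ± 0.19.

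Replicate number took a larger part of the sum of squares of these genes than the innate-like or adaptive label, as it did for all genes in the T cell pairs. Number has more levels than group in the T cell pairs, which by itself gives it a larger part there. Within a pair, the sum of squares of the 73 genes about their pair means was split between group, number and remainder. Number took 78% in the NKT pair, 68.8% in the CD8 pair and 77% in the B cell pair, and group 11.5%, 15.8% and 16.8%. For all genes number took 58.6%, 60% and 44.9%, and group 29.6%, 24.7% and 47.1%. Number outweighed group for 60, 58 and 54 of the 73 genes (82.2%, 79.5% and 74%), against 79.3%, 77.8% and 58.1% of all genes. In the T cell pairs these shares are close to those of all genes, so they are not a trait of the chain genes.

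**Figure D3:**
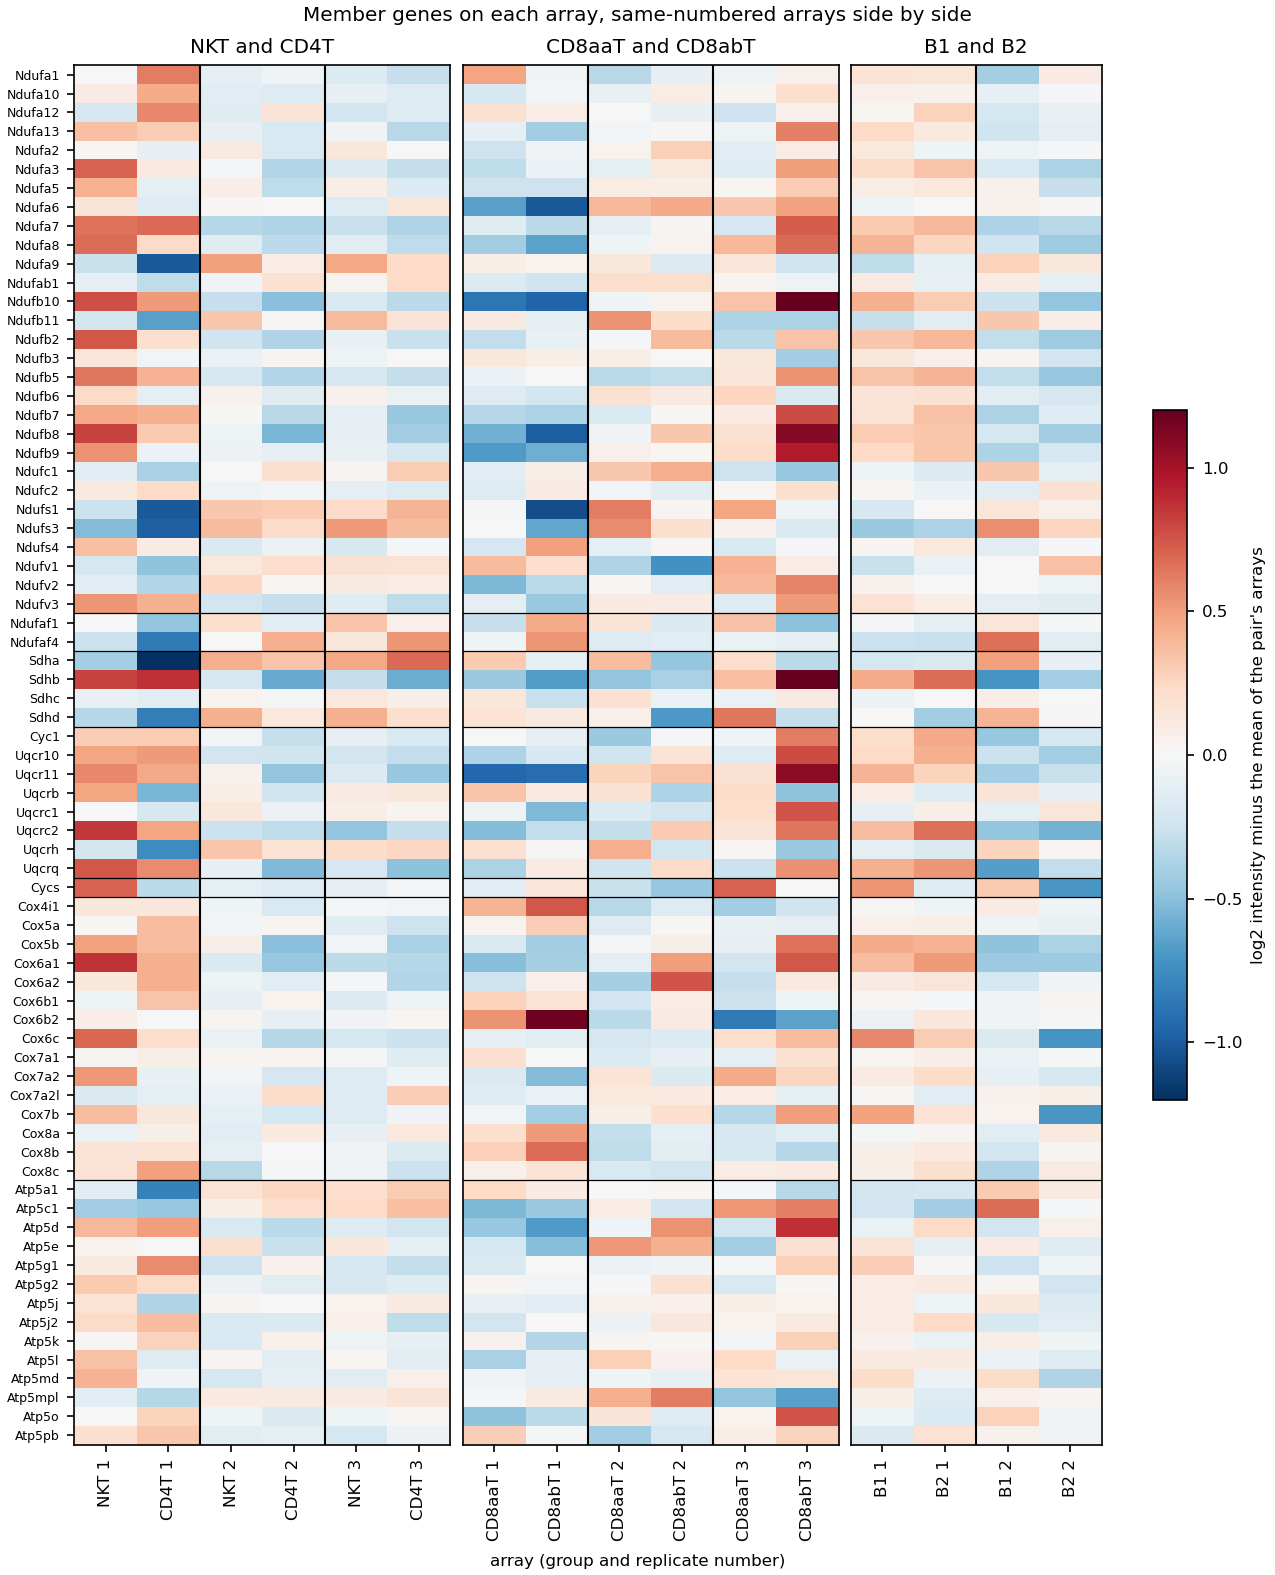
Log2 intensity of the 73 genes on each array minus the gene's mean over its pair, with columns for arrays ordered by replicate number, rows grouped by complex, and colours limited to 1.2 either way. For most genes columns of the same number are closer in colour than columns of the same group, and in the NKT pair replicate 1 often has the opposite colour of replicates 2 and 3.

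The shift of replicate 1 was not the same in every gene or pair. Averaged over both groups, Sdhb on replicate 1 was 1.26 above the mean of replicates 2 and 3 in the NKT pair and 1.12 above replicate 2 in the B cell pair, while Ndufs3 was at -1.12 and -0.82 and Sdha at -1.44 and -0.39 in the same pairs. In the CD8 pair the median shift had the opposite sign, -0.17 against 0.26 and 0.16, with Ndufb10 at -1.38 after 0.97 and 0.74. The 18S ribosomal control read 1326 and 675 on replicate 1 of CD4T and NKT, against 52.7 to 59.2 on replicates 2 and 3, and 877 and 776 on replicate 1 of B2 and B1 against 62.6 and 33.4 on replicate 2. In the CD8 pair the order was reversed, with 129 and 66.5 on replicate 1 of CD8abT and CD8aaT against 249 to 857 on replicates 2 and 3. Its part in the shift was not tested.

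Taken by replicate number, the median difference of the 73 genes was 0.18, 0.08 and 0.06 in the NKT pair, 0.05, -0.04 and -0.18 in the CD8 pair, and -0.01 and 0.08 in the B cell pair. The NKT medians were thus positive for each number, and those of the other pairs changed sign. Complex II was positive for each number in both T cell pairs and at -0.05 and 0.24 in the B cell pair, and complex III in the CD8 pair ranged from 0.03 to -0.61.

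**Figure D4:**
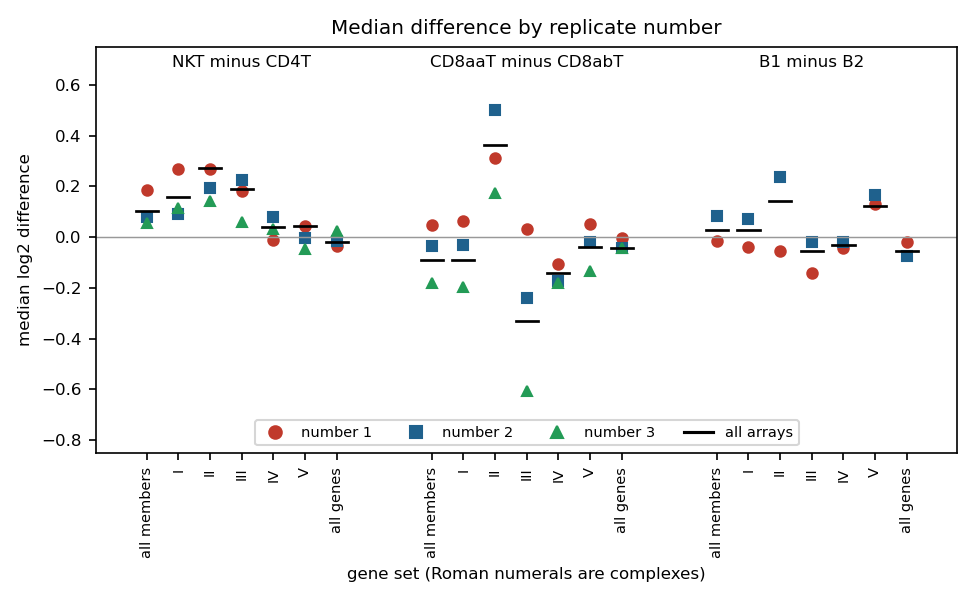
Median log2 difference between same-numbered arrays for all 73 genes, for each complex and for all genes, with point shape for the replicate number and a bar for the median of the fit on all arrays. All-gene medians stay near 0, while complex III spreads from -0.61 to 0.03 in the CD8 pair.

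Where a gene had more than 1 probe set, the others gave few calls as well. The 21 such genes had 28 further probe sets, of which 0 were called by limma in the NKT, CD8 and B cell pairs (1.63%, 0.185% and 1.14% of all probe sets). With the block 0, 1 and 0 were called (4.84%, 3.2% and 2.84%), the 1 being a probe set of Atp5d. The 5 probe sets of Atp5d ran from -0.60 to 0.01 in that pair. Of the 73 probe sets used, 10 carry the suffix f and 2 the suffix s, by which the manufacturer marks probes shared with related transcripts, so the values of those genes are less certain.

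Genes that work beside the chain gave few calls. Of 17 measured citric acid cycle genes, 9 assembly and haem genes, 17 import and chaperone genes, 30 mitochondrial ribosome genes and 5 antioxidant genes, 0 were called in any pair by limma, with medians between -0.06 and 0.23 in the pairs. At an unadjusted limma p under 0.05 there were 1, 3 and 4 of these 78 genes in the NKT, CD8 and B cell pairs, against 588, 578 and 468 of all 8251 genes. With the block 1 of the 78 was called in CD8aaT cells, where 3.81% of all genes were: Dld (0.65 ± 0.40, adjusted p = 0.891, and 0.029 with the block), the shared dehydrogenase subunit of the 2-oxoacid complexes. Of 14 biogenesis regulators 1 was called, the transcription factor Myc, in B1 cells (1.36% of all genes). Myc read 6.57 and 7.10 in B1 against 5.34 and 4.92 in B2. The groups did not overlap, and the difference was 1.70 ± 0.27 (3.26-fold, adjusted p = 0.0044). It was not called on the B cell arrays alone (adjusted p = 0.11), without B2 replicate 2 (0.093) or without B1 replicate 2 (0.094).

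Of 13 mitochondrial carriers and related genes 1 was called, against 1.87% of all genes: Slc25a4, the ADP/ATP carrier that exports ATP from mitochondria, fell in NKT cells. It read 7.98, 7.03 and 7.22 in NKT against 8.57, 8.73 and 8.72 in CD4T, a difference of -1.26 ± 0.25 (2.40-fold lower, limma adjusted p = 0.014). In B1 cells it read 10.05 and 9.95 against 9.02 and 8.66 in B2 (1.15 ± 0.30, adjusted p = 0.13, and 0.018 with the block), the opposite sign. All arrays were separate in both pairs. The NKT call was lost without any 1 of CD4T replicate 2 (0.074), CD4T replicate 3 (0.065), NKT replicate 2 (0.098) and NKT replicate 3 (0.09), on the arrays of the pair alone (0.088), and with replicates 2 and 3 of both groups averaged (0.29). With the block a second gene of this list was called lower in NKT cells, Atpif1, the inhibitor of the ATP synthase (-0.40 ± 0.17, limma adjusted p = 0.662, and 0.031 with the block). The related carrier Slc25a5 was at 0.04 ± 0.16, with 7.73, 7.58 and 7.52 in NKT against 7.79, 7.49 and 7.43 in CD4T.

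Of 14 glycolysis genes, 11 were above 0 in the NKT pair (45.3% of all genes), with a median of 0.13. In NKT cells 1 of the 14 was called (1.87% of all genes), the glucose transporter Slc2a3. It read 6.69, 7.58 and 7.51 in NKT against 6.05, 6.45 and 6.39 in CD4T, a difference of 0.96 ± 0.23 that passed only narrowly (limma adjusted p = 0.0495) and was not called under 19 of 27 alternatives, among them leaving out any 1 of 13 arrays (adjusted p from 0.059 to 0.29). With the block, Tpi1, a glycolytic isomerase, was called as well in NKT cells (0.68 ± 0.39, limma adjusted p = 1, and 0.0196 with the block), in B1 cells (0.76 ± 0.47, 0.0496 with the block) and in the average of the 3 pairs (0.65 ± 0.24, limma adjusted p = 0.393, and 0.0017 with the block). It was at 0.50 ± 0.39 in the CD8 pair (0.087 with the block).

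Markers of other cell types differed in some of these comparisons. In NKT cells 3 of 9 B cell markers and 2 of 12 macrophage markers were called higher, where 1.87% of all genes were called. They were Cd72 (1.90 ± 0.38), H2-Aa (1.42 ± 0.28) and H2-Ab1 (1.17 ± 0.27), and Lyz2 (2.08 ± 0.35) and Csf1r (0.60 ± 0.13). The summed intensity of the 9 B cell markers was 1694 to 3137 on NKT arrays and 1049 to 1891 on CD4T arrays, and that of the macrophage markers 1151 to 1232 against 829 to 898. The Cd72 call was lost without NKT replicate 2 (limma adjusted p = 0.096) or 3 (0.1) and on the arrays of the pair alone (0.2). The H2-Aa call was lost without CD4T replicate 2 (0.1), CD4T replicate 3 (0.1) or NKT replicate 1 (0.065). It was also lost on the arrays of the pair alone (0.22) and after quantile normalization (0.12). H2-Ab1 was not called under 19 of 27 alternatives and Csf1r under 13 of 26. With replicates 2 and 3 of both groups averaged, Lyz2 was not called either (0.072). In B1 cells, where 1.36% of all genes were called, Lyz2 was called higher (2.29 ± 0.43). Its difference was 1.88 without B2 replicate 2 and 1.60 without B1 replicate 1. The call was lost on the B cell arrays alone (limma adjusted p = 0.33) and with the mean of its probe sets (0.087). Of 9 B cell markers 2, Cd72 and Cd22, were called lower, and Cd22 was not called on the B cell arrays alone (0.32). The summed macrophage markers were 1372 to 1387 in B1 against 1047 to 1051 in B2. The summed T cell markers were 2575 to 3017 in B1 against 1355 to 1912 in B2, with 0 called by limma and 1 called higher with the block. In the CD8 pair 0 markers were called by limma. The 9 T cell markers there had a median of -0.37 with 0 above 0, 4 were called lower with the block, and their summed intensity was 2773 to 5183 on CD8aaT and 3445 to 6759 on CD8abT arrays. Erythroid, granulocyte and stroma markers gave 0 calls in any pair, with or without the block. Their part in the values of the chain genes was not tested.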

How the data were processed

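The deposited values are intensities on a linear scale, 1 for each of 12488 probe sets and 16 arrays. Per the submitters' processing notes, the authors made them with RMA, which corrects background, normalizes between arrays and summarises probes. The sources used here give neither its version and settings nor which arrays it normalized jointly. Per the labels, RNA was isolated with TRIZOL, amplified and hybridised as biotinylated cRNA. RMA tends to compress differences of dim probe sets.

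After removal of 66 control probe sets, log2 intensities of all 16 arrays were fitted by group (6 means) using lmFit and eBayes of limma 3.58.1 under R 4.3.3, with two-sided tests. Adjustment was by Benjamini-Hochberg over 12422 probe sets, with calls under 0.05 and no filter. Sample titles gave the groups and replicate numbers. Genes were named from the platform annotation, and 0 of the 73 symbols differed from RefSeq GRCm38.p6.

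The numbers were taken to pair the T cell arrays from the data, not from a label. Deviations of same-numbered arrays correlated at 0.76, 0.65 and 0.67 in the NKT pair and 0.64, 0.60 and 0.66 in the CD8 pair, above a minimum of 0.1. In the NKT pair this sets replicate 1 apart and does not pair replicates 2 and 3 by number. In the B cell pair the value was 0.69 over only 2 pairs, too few for the rule. The block was fitted there all the same, so its B cell results rest on a pairing that was not established.

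The genes and lists were chosen with earlier results of these data known. Members were named in each pair by the largest difference among those without overlap between arrays, up to 10, and in the average of the 3 pairs by the largest average among genes without overlap in at least 1 pair; Cycs, Cyc1, the Atp5g genes and the tissue-restricted forms were always named. Ndufs1 and Sdhd were named for their calls under the block, and other genes given with values were chosen after their values were seen. Fits were tested on simulated data.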

Additional observations from a re-analysis of the deposited data

Results flagged for a closer look

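The differences of 3 genes between the pairs met the criterion for a closer look, which was a test of the difference between pairs itself. Uqcrq, of complex III, differed by 0.88 between the NKT pair (0.30) and the CD8 pair (-0.59), with a limma adjusted p of 1, and 0.012 in the fit with the block. It was called under the block and without replicate 1 of every group, and not under the other 24 alternatives. Slc25a4, the ADP/ATP carrier, differed by -2.42 between the NKT pair (-1.26) and the B cell pair (1.15), with a limma adjusted p of 0.0043, and was called under 26 of 26 alternatives. Myc differed by -2.05 between the same pairs, with a limma adjusted p of 0.0072. It was not called with replicates 2 and 3 of CD4T and of NKT averaged (0.063), without B2 replicate 2 (0.058) or without B1 replicate 2 (0.062).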

How the results depend on the processing

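In 3 pairs, their average, the F test and the differences between pairs, 0 of 73 genes were called with each of the 16 arrays left out in turn. The same held with an offset of 32, after quantile normalization or median centring, with the mean of a gene's probe sets, with the actin ratio as a covariate, and with replicates 2 and 3 of CD4T and of NKT averaged, which was chosen after seeing the data. It also held for the 3 pairs on the arrays of each pair alone, and for the 62 genes tested when dim probe sets were left out. With the replicate block the counts were 2 in the CD8 pair, 1 in the average, 1 in the NKT minus CD8 difference and 2 in the F test; the block changed no other call of a chain gene. Without replicate 1 of every group they were 2 in the CD8 pair (Atp5d and Cox6a1, lower), 1 in the B cell pair (Ndufaf4, higher), 3 in the NKT minus CD8 difference, 1 in the NKT minus B1 difference and 4 in the F test. With array weights they were 22 in the NKT pair (14 higher and 8 lower, among 4034 probe sets called), 2 in the CD8 pair, 3 in the average, 3 in the NKT minus CD8 difference and 16 in the F test. The array weights did not converge and gave CD4T replicate 2 a weight of 68.4. The counts without replicate 1 and with array weights stand without the share of all genes called in the same setting. They are therefore not read as a result about the chain genes. Leaving out replicate 1 also leaves only 1 array in B1 and in B2. Over arrays left out in turn the median ran from -0.0080 (without NKT replicate 1) to 0.14 in the NKT pair, -0.14 to 0.04 in the CD8 pair, -0.09 to 0.12 in the B cell pair and -0.03 to 0.08 in the average. Of 1173 values of 44 gene differences under 27 alternatives, 1158 stayed on the same side of the threshold, 15 were newly called, and 14 changed sign, none of them called. Many of these alternatives, such as leaving out an array of another pair, cannot change the difference of a single pair, so the counts overstate how far it was tried. Ndufa4 was to be counted with complex IV as an alternative, but it is not among the 73 genes, so that setting gave no value. Precision is limited by 2 or 3 arrays in each group: the median SE was 0.25 in the T cell pairs and 0.30 in the B cell pair.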
